A study of Mus musculus with 48 samples.

Results

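White adipose tissue (WAT) of C3B6F1 females, hybrid mice from 2 inbred strains, was compared between lifelong dietary restriction (DR) and full feeding at 26 months of age. The comparison used 6 of the 48 RNA libraries of the series, namely the 3 labelled DR and the 3 labelled AL (ad libitum) among the 22 WAT libraries. All 22 were fitted together. The others were 3 AL and 3 ALDR libraries of 5 months, the ALDR mice restricted for 2 months, and 5 ALDR and 5 DRAL libraries of 26 months. These older mice were switched at 24 months, to restriction (ALDR) or from restriction to full feeding (DRAL). AL mice ate standard rodent chow freely. DR mice received 60% of the amount eaten by AL mice from 12 weeks of age, given once a day and reached in weekly steps. The labels give no genotype beyond the strain, and no mouse of either group is described as carrying a transgene or receiving a drug. The protocol gives the age at death as 27 months, and it names epididymal fat although the mice were female, so the depot is uncertain. Tissue was taken shortly before the next daily meal of the DR mice was due, so it came late in the interval between meals. The labels call the replicates biological and do not say which mice shared a cage.

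White fat stores energy as triacylglycerol, which its adipocytes build from fatty acids taken up from blood or made from glucose. They release these fatty acids again through lipolysis when food is absent. Adipocytes also secrete hormones such as leptin, and the tissue around them holds blood vessels, fibroblasts and immune cells, among which macrophages gather when fat expands. In bulk tissue, fewer cells of a type and less RNA per cell cannot be told apart, and this applies to every group of genes below.

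RNA depleted of ribosomal RNA was sequenced in stranded, paired-end libraries, with total counts of 16103349 to 22258644 in the 6 libraries. A count of 3 corresponded to 0.135 to 0.186 CPM (counts per 1000000) of the unscaled totals, a limit that covers counting error only. The CPM values of genes and lists are after scaling. The libraries were searched for RNA of neighbouring tissues, and skeletal muscle RNA was unevenly present. Ckm, the creatine kinase of muscle, was measured at 101, 2.1 and 0.779 CPM in AL 1, 2 and 3 and 45.8, 531 and 1944 CPM in DR 1, 2 and 3. DR 2 and DR 3 were above every AL library, while AL 1 was above DR 1. The 20 muscle genes measured had the same order: they took 0.815% and 2.14% of the counts in DR 2 and DR 3, 0.0595% in DR 1, 0.177% in AL 1 and 0.0151% or less in AL 2 and AL 3. Alb, the serum albumin made by liver, had 28110 counts in AL 3 and 344 to 2227 counts in the other 5 libraries. DR 1 stood apart in lymphocyte genes, with a summed level of 609.7 CPM over 13 B and plasma cell genes against 154 to 393 CPM elsewhere, and 289 CPM over 25 T and NK cell genes against 36.3 to 252 CPM. The values below were therefore also computed with DR 1 as the only DR library, which removes the muscle RNA of DR 2 and DR 3, and with a muscle and a liver score as covariates. Each score was the mean log2 CPM of a marker list. The liver list held Cyp2e1 and Trf, which fat also expresses and which rose in DR by 3.10 and 1.39 on the log2 scale. The liver score may thus hold part of the difference between the diets.

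**Figure D1:**
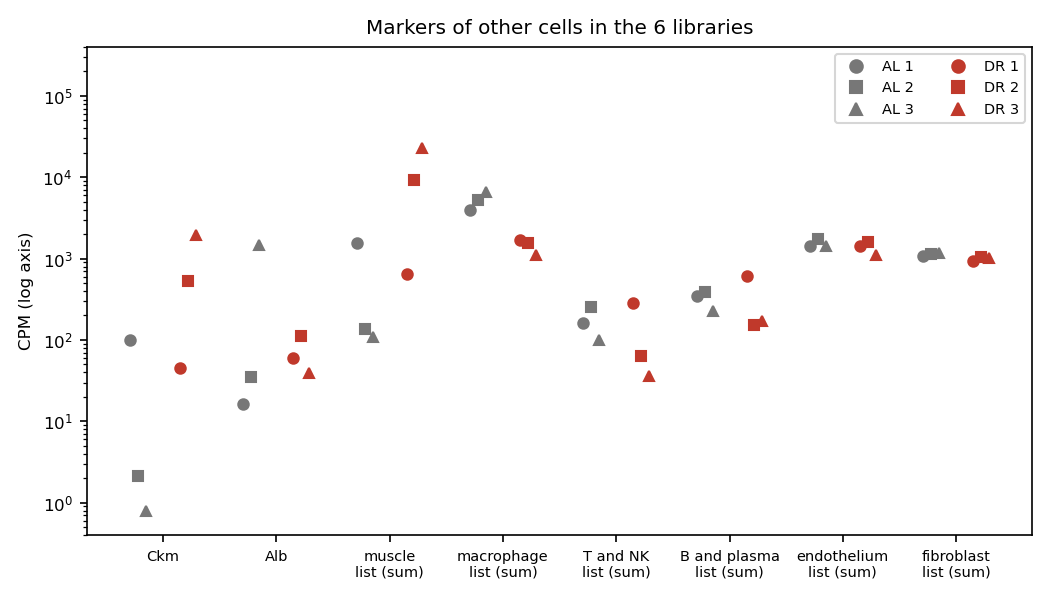
Level in CPM (log axis) of Ckm and Alb and summed levels of 6 lists of cell type markers in each of the 3 AL (grey) and 3 DR (red) libraries, 1 point per library. Ckm and the muscle list were highest in DR 2 and DR 3, Alb in AL 3 and the lymphocyte lists in DR 1, whereas the macrophage sums of the DR libraries (1122 to 1718 CPM) all lay below those of the AL libraries (3966 to 6569 CPM).

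Lifelong restriction changed a large part of the WAT transcriptome. Of 15828 genes tested with edgeR's quasi-likelihood test, 4114 had a Benjamini-Hochberg (BH) adjusted p under 0.05, which is 26.0% of the genes. Of these, 2142 (13.5% of the genes tested) were higher and 1972 (12.5%) lower in DR. The change was at least 2-fold in 1545 of them, 707 higher and 838 lower, and at least 8-fold in 102 higher and 76 lower. The median log2 fold change (DR over AL) was 0.73 among the higher genes, -0.86 among the lower genes and -0.0012 over all genes tested. The 3 DR and 3 AL libraries did not overlap in 6138 genes (38.8%), among them 3818 of the 4114. Protein-coding genes made up 3942 of the changed genes, out of 14800 tested, and long non-coding RNAs 118 of 679. Without DR 2 and DR 3, 1227 of the 4114 genes were still called in the same direction and 54 had the opposite sign. The muscle and liver covariates left 1885 called in the same direction, with 7 of opposite sign. A lone DR library leaves fewer samples for each test, so counts of calls with DR 1 alone are given beside the list median for several lists.

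The genes with the smallest adjusted p-values among those changed at least 2-fold came from several processes. Higher in DR were Fdft1, which makes squalene for cholesterol synthesis (1.63 ± 0.15 on the log2 scale, SE), Gpi1, the glycolytic isomerase that follows hexokinase (1.26 ± 0.11), and Mgst2, a microsomal glutathione transferase (2.37 ± 0.22). Pth1r, the receptor of parathyroid hormone, rose from 19.7 ± 3.62 CPM in AL to 77.7 ± 9.6 CPM in DR, mean ± SD over 3 libraries each. C2cd2l, Gucd1, Akap7 and Rassf3 also rose, by 1.69, 1.27, 1.10 and 1.42. Lower in DR were Apoe, the apolipoprotein that macrophages and adipocytes secrete (-1.52 ± 0.17), the lysosomal transporter Slc15a3 (-2.93 ± 0.32), the lysosomal phospholipase Pla2g15 (-1.28 ± 0.15) and the sugar phosphate exchanger Slc37a2 (-2.97 ± 0.34). Dtx4 and the aldehyde dehydrogenase Aldh3b1 fell by 1.78 and 1.80. BH-adjusted p-values in edgeR's test were at most 1.1e-05 for the 4 lower genes given with an SE, and the genes of this paragraph were chosen among those whose AL and DR libraries did not overlap.

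**Figure D2:**
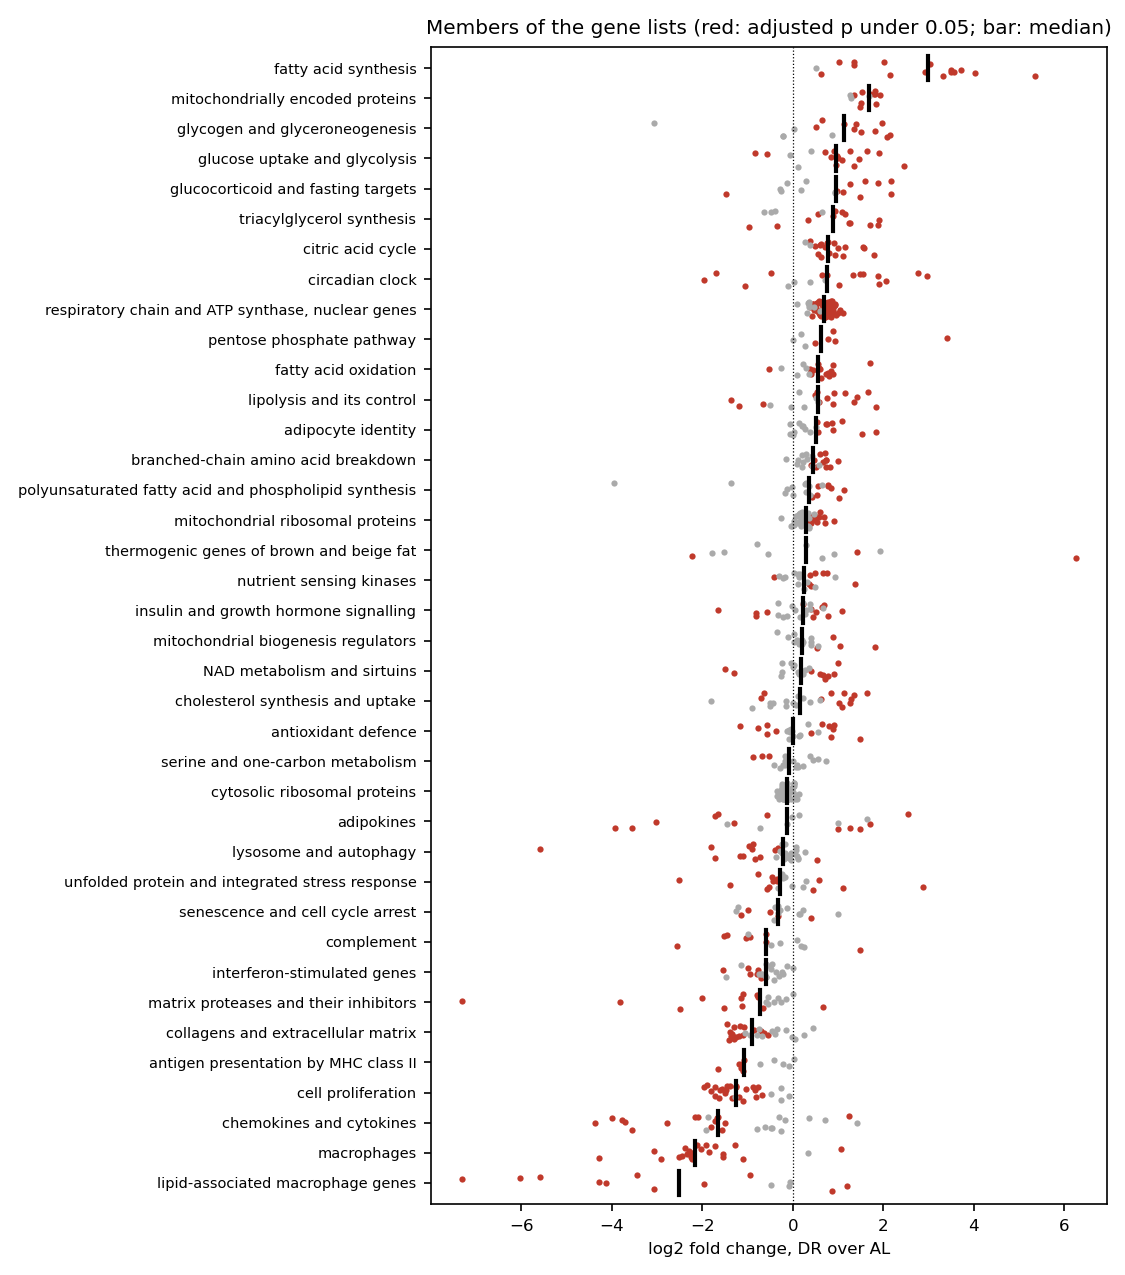
Log2 fold change of DR over AL for every tested member of 38 gene lists (horizontal axis), 1 point per gene, red where the BH-adjusted p was under 0.05 and grey otherwise, with a black bar at the median of each list. Lists run from macrophage and chemokine genes, mostly lower in DR, at the bottom to fatty acid synthesis, with a median of 2.98, at the top.

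Fatty acid synthesis gave the highest median of the lists of metabolic genes. Of its 16 members, 15 rose (15 with the covariates and 14 with DR 1 alone) and none fell, against 13.5% and 12.5% over all genes tested, and the median log2 fold change was 2.98. Together the 16 genes took 1.46%, 2.61% and 2.32% of all counts in AL 1, 2 and 3 and 11.8%, 10.7% and 10.8% in DR 1, 2 and 3. Every DR library was thus above every AL library. Elovl6 (chromosome 3, 129532355 to 129638495, plus strand of GRCm38), which lengthens the products of fatty acid synthase, was measured at 65.4, 31.4 and 85.8 CPM in AL 1, 2 and 3 and 2984, 1934 and 2548 CPM in DR 1, 2 and 3, a 40.9-fold difference (log2 fold change 5.35 ± 0.66 (SE), BH-adjusted p = 1.94e-05). Acaca, the carboxylase that commits acetyl-CoA to fatty acids, was at 537, 502 and 710.1 CPM in AL 1, 2 and 3 and 9691, 8611 and 10125 CPM in DR 1, 2 and 3 (log2 fold change 4.02 ± 0.44 (SE), BH-adjusted p = 7.59e-06). Me1, which supplies NADPH, was at 135, 131 and 224 CPM in AL 1, 2 and 3 and 1953, 1517 and 2082 CPM in DR 1, 2 and 3. Slc25a1, which exports citrate from mitochondria, was at 109, 93.5 and 170.4 CPM in AL 1, 2 and 3 and 1118, 749 and 972 CPM in DR 1, 2 and 3. In all 4 genes the lowest DR library was several times the highest AL library. Their log2 fold changes with DR 1 alone were 5.61, 4.05, 3.58 and 3.17. The transcription factors that drive these genes moved less, with Srebf1 at 1.34 ± 0.22 and Mlxipl at 1.02 ± 0.25. Scd2, the second stearoyl-CoA desaturase, was the member that did not pass (log2 fold change 0.51 ± 0.62 (SE), BH-adjusted p = 0.587), while Scd1 rose by 2.15. Mlxipl lost the call with DR 1 alone.

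Glucose use was represented by 3 lists, and most of their members rose. In the pentose phosphate pathway, which also makes NADPH, 5 of 8 members rose (5 with the covariates and 3 with DR 1 alone). Tkt, the transketolase of its non-oxidative branch, was measured at 459.9, 347 and 590.2 CPM in AL 1, 2 and 3 and 5695, 3619 and 5594 CPM in DR 1, 2 and 3 (log2 fold change 3.42 ± 0.38 (SE), BH-adjusted p = 7.59e-06). The rest of the pathway changed far less: Taldo1 (0.93), Pgd (0.89) and Rpe (0.48) rose. Among 18 genes of glucose uptake and glycolysis, 13 rose and 2 fell, with a median of 0.96; 12 with the covariates and 10 with DR 1 alone rose. The insulin-regulated glucose transporter Slc2a4 rose from 146 ± 28.6 CPM in AL to 309.6 ± 29.8 CPM in DR (log2 fold change 1.09 ± 0.18 (SE), BH-adjusted p = 0.000281). Aldoa (1.64), Eno1 (1.01) and Pkm (1.36) rose, while Pfkp (-0.84) and Hk1 (-0.58) fell, although the call was lost for Hk1 without AL 1, AL 2, DR 1 or DR 3 (log2 fold change -0.58 to -0.51). Gapdh rose by 1.46, but it has near-identical copies in the genome and its count of 13.8 CPM in AL is uncertain. Pfkm, the muscle phosphofructokinase, was measured at 57.1, 29.9 and 26.9 CPM in AL 1, 2 and 3 and 54.4, 208 and 368 CPM in DR 1, 2 and 3. It followed the muscle genes, and its log2 fold change of 2.47 became 0.52 with DR 1 alone. Hk1 lost the call with the covariates and with DR 1 alone, and Pgd, Pfkp and Pfkm lost it with DR 1 alone.

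Genes that handle glycogen and the glycerol backbone of fat rose as well, in 10 of the 15 tested of 16 members, with none lower and a median of 1.14, and in 9 with the covariates and 6 with DR 1 alone. Pcx, the pyruvate carboxylase that feeds oxaloacetate to citrate and to glycerol synthesis, was measured at 628, 569 and 818 CPM in AL 1, 2 and 3 and 2925, 3062 and 3000 CPM in DR 1, 2 and 3 (log2 fold change 2.16 ± 0.23 (SE), BH-adjusted p = 6.13e-06). Pygl, a glycogen phosphorylase, was at 191, 178 and 305 CPM in AL 1, 2 and 3 and 1073, 741 and 1046 CPM in DR 1, 2 and 3. Gbe1, the glycogen branching enzyme, was at 73.4, 66.9 and 94.4 CPM in AL 1, 2 and 3 and 345, 271 and 312 CPM in DR 1, 2 and 3. The DR and AL libraries were apart in all 3, by log2 fold changes of 2.12, 2.26 and 2.14 with DR 1 alone. Pck1, the key enzyme of glyceroneogenesis in fat, rose by 1.83 ± 0.32, and Ugp2, which makes UDP-glucose, by 1.14 ± 0.14. For Gys1 (1.36), the glycogen synthase that muscle also expresses, the value with DR 1 alone was lower, at 0.94.

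Both the assembly and the release of stored fat had more transcripts in DR. Triacylglycerol synthesis had 11 of 17 members higher and 2 lower, with a median of 0.88, and 10 with the covariates and 8 with DR 1 alone higher. The lower count was 1 without AL 3, DR 1 or DR 3. Agpat2, which acylates lysophosphatidic acid, was measured at 155, 128 and 332 CPM in AL 1, 2 and 3 and 798, 669 and 840.2 CPM in DR 1, 2 and 3 (log2 fold change 1.91 ± 0.29 (SE), BH-adjusted p = 0.000139). Lpin1 (1.88 ± 0.24), the phosphatidate phosphatase, Dgat1 (1.72 ± 0.17), which adds the last fatty acid, and Gpat3 (1.16 ± 0.15) rose with no overlap between the groups. Glycerol kinase, Gk, fell (-0.96). Among 20 genes of lipolysis and its control, 11 rose and 3 fell. The higher count was 9 with the covariates and 8 with DR 1 alone, and the lower count 1 with the covariates and 1 with DR 1 alone. Adrb3, the catecholamine receptor that starts lipolysis in mouse fat, was at 98.4, 91 and 138 CPM in AL 1, 2 and 3 and 309, 459 and 397 CPM in DR 1, 2 and 3 (log2 fold change 1.83 ± 0.26 (SE), BH-adjusted p = 7.49e-05). The hormone-sensitive lipase Lipe rose from 743 ± 63.5 CPM in AL to 1379 ± 189 CPM in DR. Genes that restrain lipolysis rose too, with Pde3b, the phosphodiesterase through which insulin acts, at 1.42, the adenosine receptor Adora1 at 1.15 and the hydroxycarboxylic acid receptor Hcar2 at 1.67. The lipase inhibitor G0s2 (-0.65), the cyclase Adcy5 (-1.37) and the natriuretic peptide clearance receptor Npr3 (-1.18) fell, and the call was lost for G0s2 without AL 2, AL 3 or DR 2 (log2 fold change -0.64 to -0.45) and for Npr3 without DR 3 (log2 fold change -1.04). G0s2 and Npr3 lost the call with the covariates and with DR 1 alone, and Gk lost it with DR 1 alone.

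**Figure D3:**
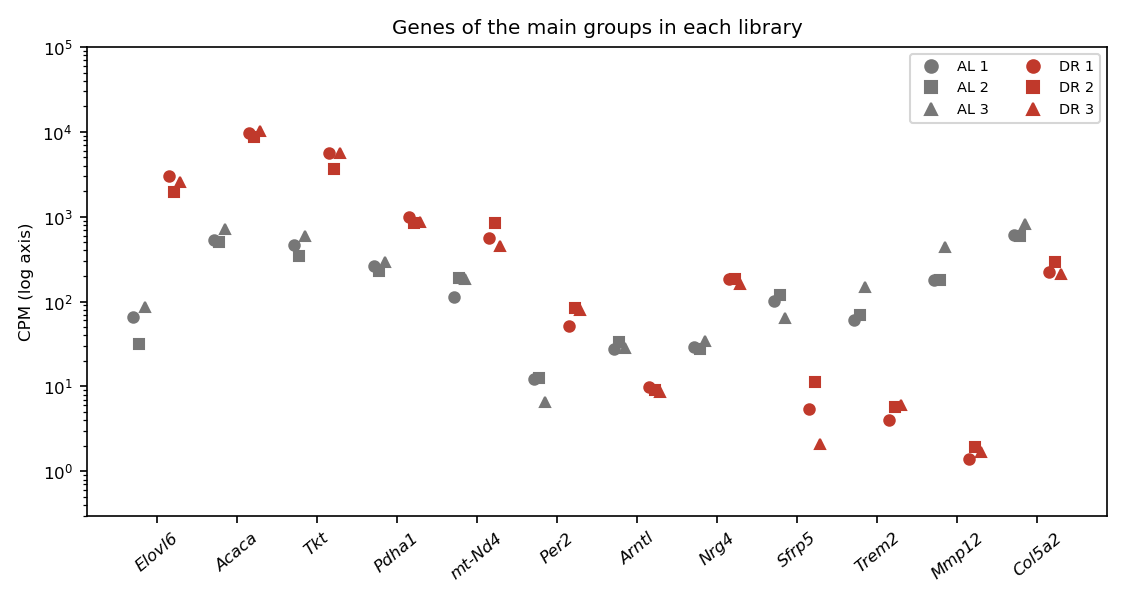
Level in CPM (log axis) of 12 genes from the main groups in each of the 3 AL (grey) and 3 DR (red) libraries, 1 point per library. In each of these genes the AL and DR libraries are apart, from Elovl6, higher in DR, to Mmp12, at 1.39 to 1.93 CPM in DR and over 170 CPM in AL.

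Mitochondrial genes were higher in DR as a group. The citric acid cycle and pyruvate dehydrogenase list had 18 of 20 members higher and none lower, with a median of 0.77, and 16 with the covariates and 12 with DR 1 alone higher. The pyruvate dehydrogenase subunits, which pass pyruvate into mitochondria as acetyl-CoA, moved furthest. Pdha1 was measured at 260.5, 229 and 289 CPM in AL 1, 2 and 3 and 988, 845 and 877 CPM in DR 1, 2 and 3 (log2 fold change 1.80 ± 0.18 (SE), BH-adjusted p = 2.74e-06), and Pdhb and Dlat rose by 1.57 and 1.55. Citrate synthase, Cs, rose from 262 ± 27.4 CPM in AL to 567 ± 25.5 CPM in DR. Of 71 nuclear genes for respiratory chain and ATP synthase subunits, 63 rose and none fell, with a narrow range of log2 fold changes from 0.084 to 1.12 and a median of 0.69. In this list 44 with the covariates and 48 with DR 1 alone rose. Ndufs7 of complex I (1.04 ± 0.14) and Cyc1, the cytochrome c1 of complex III (0.94 ± 0.14), were among the 4 with the smallest p-values. The 13 proteins encoded by mitochondrial DNA had a median of 1.68, and 10 rose. mt-Nd4 was at 113, 189 and 183 CPM in AL 1, 2 and 3 and 556, 850.1 and 451 CPM in DR 1, 2 and 3, and the 13 genes took 0.437% to 0.727% of the counts in AL and 1.27% to 1.92% in DR. The other 3, mt-Nd6 (1.28), mt-Nd4l (1.68) and mt-Co2 (1.27), did not pass, and the last 2 lay below 3 CPM in every library, in counts that nuclear copies of mitochondrial DNA may share.

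Other mitochondrial lists were mixed in their shares of called members. Of 49 mitochondrial ribosomal protein genes, 17 rose and none fell (median 0.30), with 5 with the covariates and 6 with DR 1 alone and 9 without AL 2. The median was 0.29 with the covariates and 0.37 with DR 1 alone, and 11 rose when only the 2 groups were fitted. None of 50 cytosolic ribosomal protein genes was called (median -0.13). Ribosomal protein genes have many processed copies, so their counts are uncertain. Fatty acid oxidation had 14 of 20 members higher and 1 lower; the higher count was 6 with the covariates and 7 with DR 1 alone and 9 without AL 1 or AL 2, or 9 when only the 2 groups were fitted. The median of 0.57 was 0.52 with the covariates and 0.60 with DR 1 alone. Echs1, Acadl and Cpt2, which act inside mitochondria, rose by 0.89, 0.88 and 0.85, whereas Cpt1a, the gatekeeper of fatty acid entry in most tissues, fell (log2 fold change -0.53 ± 0.17 (SE), BH-adjusted p = 0.0305). Cpt1b, its muscle and fat form, rose by 1.71, against 0.72 with DR 1 alone. The call was lost for Cpt1a without AL 2, AL 3, DR 2 or DR 3 (log2 fold change -0.56 to -0.43) and for Cpt1b without AL 1, AL 2 or DR 3 (log2 fold change 1.37 to 1.66). Breakdown of branched-chain amino acids had 11 of 22 members higher (9 with the covariates and 7 with DR 1 alone) and none lower, among them Hibch (0.99) and Bckdha (0.82). Regulators of mitochondrial biogenesis had 4 of 18 tested members higher and none lower, against 13.5% higher over all genes tested. The higher count was 2 with the covariates, and 2 without AL 1, AL 2 or DR 3. The median of 0.21 was 0.098 with the covariates and 0.16 with DR 1 alone. Ppargc1a, the coactivator best known in this role, was measured at 3.98, 3.52 and 4.21 CPM in AL 1, 2 and 3 and 6.43, 19.4 and 15.8 CPM in DR 1, 2 and 3. All DR libraries were above all AL libraries, but the 2 libraries with the most muscle RNA were the highest, and the log2 fold change of 1.83 was 0.72 with DR 1 alone. Tfb2m, a mitochondrial transcription factor, rose by 0.90, with 0.88 for DR 1 alone, while Tfam, the main mitochondrial transcription factor, did not pass (log2 fold change 0.11 ± 0.10 (SE), BH-adjusted p = 0.465). Cpt1a, Cpt1b and Ppargc1a lost the call with the covariates and with DR 1 alone.

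**Figure D4:**
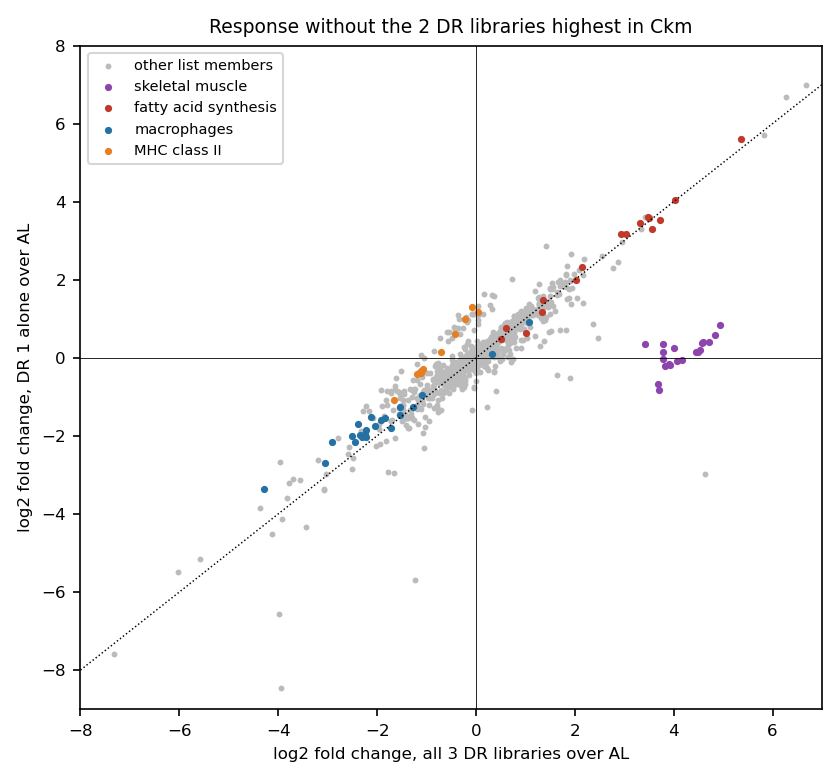
Log2 fold change over AL of every tested list member other than the liver genes, with all 3 DR libraries (horizontal axis) and with DR 1 as the only DR library (vertical axis), and a dotted line where both are equal. Skeletal muscle genes fall from 3.42 to 4.93 with all libraries to between -0.84 and 0.84 with DR 1, MHC class II genes shift upward, and the genes of fatty acid synthesis and of macrophages stay near the line.

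Of 11 tested genes of heat production in brown and beige fat, 2 rose and 1 fell (2 with the covariates and 1 with DR 1 alone rose), a share close to the 26.0% called over all genes tested. Elovl3, an elongase of brown fat that is induced by cold, was at 0, 0 and 0.156 CPM in AL 1, 2 and 3 and 6.14, 4.58 and 2.97 CPM in DR 1, 2 and 3 (BH-adjusted p = 0.000778), so it was near the detection limit in AL. Cox7a1, a respiratory chain subunit of brown fat and muscle, rose by 1.43, with 1.04 for DR 1 alone. Otop1 fell (-2.22), and Ucp1, the uncoupling protein itself, was at 0.576, 0.17 and 7.63 CPM in AL 1, 2 and 3 and 2.2, 0.713 and 0 CPM in DR 1, 2 and 3, with overlapping groups (log2 fold change -1.51 ± 2.14 (SE), BH-adjusted p = 0.644). AL 3 was the highest library, and without it the log2 fold change of Ucp1 was 1.34. The call was lost for Cox7a1 without AL 1, AL 2 or DR 3 (log2 fold change 0.84 to 1.43) and for Otop1 without AL 1, AL 3, DR 2 or DR 3 (log2 fold change -2.25 to -1.71). Cox7a1 and Otop1 lost the call with the covariates and with DR 1 alone.

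Some genes of adipocyte identity were higher in DR and none was called lower. Of 19 members, 9 rose (8 with the covariates and 5 with DR 1 alone). Pparg, the master regulator of adipocytes, was measured at 156, 198 and 176 CPM in AL 1, 2 and 3 and 238, 221 and 183 CPM in DR 1, 2 and 3 (log2 fold change 0.28 ± 0.19 (SE), BH-adjusted p = 0.294). Adipoq, which encodes adiponectin, was at 2334, 2654 and 2837 CPM in AL 1, 2 and 3 and 3141, 2838 and 2667 CPM in DR 1, 2 and 3 (log2 fold change 0.14 ± 0.13 (SE), BH-adjusted p = 0.454). In both genes the groups overlapped. Nat8l, which makes N-acetylaspartate, rose from 81.3 ± 30 CPM in AL to 234 ± 36.6 CPM in DR (log2 fold change 1.52 ± 0.27 (SE), BH-adjusted p = 0.000502). The secreted factors of fat moved in both directions, with 5 of 19 adipokine genes higher (5 with the covariates and 5 with DR 1 alone) and 7 lower (5 with the covariates and 5 with DR 1 alone). Sfrp5, a secreted Wnt inhibitor, was at 102, 121 and 64.7 CPM in AL 1, 2 and 3 and 5.45, 11.2 and 2.1 CPM in DR 1, 2 and 3 (log2 fold change -3.92 ± 0.62 (SE), BH-adjusted p = 0.000179), and Hp, which encodes haptoglobin, fell from 1372 ± 471 CPM in AL to 439 ± 140.0 CPM in DR. Nrg4, a growth factor released by thermogenic fat, was at 29, 28 and 34.5 CPM in AL 1, 2 and 3 and 186, 184 and 162 CPM in DR 1, 2 and 3 (log2 fold change 2.54 ± 0.26 (SE), BH-adjusted p = 4.59e-06). Retn, which encodes resistin, rose from 413 ± 71.3 CPM in AL to 1347 ± 147 CPM in DR, and Rbp4, the retinol carrier, by 1.26. For Sfrp5, Hp, Nrg4 and Retn no library of one group reached the range of the other.

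Of 25 insulin signalling genes, 8 were higher and 4 lower, the latter near the 12.5% lower over all genes tested. The higher count was 3 with the covariates and 0 with DR 1 alone, and 5 without AL 1, AL 3, DR 2 or DR 3. The lower count was 1 with the covariates and 1 with DR 1 alone, and 1 to 2 without AL 1, AL 3, DR 1, DR 2 or DR 3. A fit of only the 2 groups gave 4 higher and 1 lower. The insulin receptor Insr was at 133, 172 and 134 CPM in AL 1, 2 and 3 and 254, 406 and 278 CPM in DR 1, 2 and 3 (log2 fold change 1.09 ± 0.20 (SE), BH-adjusted p = 0.000589), so each DR library was higher than each AL library. Akt2, the kinase of insulin action in fat, rose by 0.52 ± 0.12. Among the genes that fell were Igf1 (log2 fold change -0.57 ± 0.19 (SE), BH-adjusted p = 0.0294), Igfbp4 (-0.82), which binds IGF1, and Grb14, an inhibitor of the insulin receptor (-1.66). The call was lost for Igf1 without AL 3, DR 1 or DR 2 (log2 fold change -0.55 to -0.40) and for Grb14 without AL 1, AL 3, DR 1, DR 2 or DR 3 (log2 fold change -1.97 to -1.24). Of 21 genes of nutrient sensing kinases, 7 rose and 1 fell. The higher count was 3 with the covariates and 1 with DR 1 alone and 4 without AL 3, and the lower count 0 to 2 without AL 1, AL 2, AL 3 or DR 3. Mtor rose by 0.76 ± 0.17 and Eif4ebp1, the translation repressor it phosphorylates, by 0.67 ± 0.14. Prkaa2, the AMPK subunit abundant in muscle, had a log2 fold change of 1.38, and of 0.43 with DR 1 alone. In NAD metabolism, 7 of 20 members rose and 2 fell (5 with the covariates and 5 with DR 1 alone rose, and the lower count was 1 without AL 2, DR 2 or DR 3), with Nampt, the rate-limiting enzyme of NAD salvage, going from 109 ± 8.59 CPM in AL to 219 ± 11.8 CPM in DR and Nnmt, which consumes nicotinamide, from 158 ± 46.5 CPM in AL to 56.3 ± 9.67 CPM in DR. Igf1 and Grb14 lost the call with the covariates and with DR 1 alone, and Insr, Akt2, Mtor and Prkaa2 lost it with DR 1 alone.

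Sterol and phospholipid genes behaved less uniformly than those of fatty acids. In cholesterol synthesis and uptake, 9 of 24 members rose and 2 fell. The higher count was 7 with the covariates and 3 with DR 1 alone and 4 to 5 without AL 1, AL 2, DR 1 or DR 3, and the lower count 1 without AL 3, DR 1 or DR 3. A fit of only the 2 groups called 6 higher and 5 lower, and DESeq2 9 and 4, while the median of 0.17 was 0.46 with the covariates and 0.35 with DR 1 alone. The steps from farnesyl diphosphate onward included those with the clearest increases, namely Fdft1, Lss and Cyp51. Fdft1 was at 39.5, 44.1 and 43.7 CPM in AL 1, 2 and 3 and 136, 131 and 128 CPM in DR 1, 2 and 3. Lss was at 42.3, 35.8 and 46.9 CPM in AL 1, 2 and 3 and 108, 93.3 and 119 CPM in DR 1, 2 and 3. Cyp51 was at 29.5, 23 and 35.7 CPM in AL 1, 2 and 3 and 76.3, 61.8 and 74.3 CPM in DR 1, 2 and 3. The AL and DR libraries were apart in each. In the synthesis of polyunsaturated fatty acids and phospholipids, 8 of 20 rose and none fell (4 with the covariates and 4 with DR 1 alone rose), led by Chpt1 (1.12 ± 0.17), which makes phosphatidylcholine, and the desaturase Fads1 (1.03 ± 0.18). Serine and one-carbon metabolism had 3 of 18 members lower, including Mthfd2 (-0.87) and Tyms (-0.68), and none higher, which is near the 12.5% lower over all genes tested. The lower count was 1 with the covariates and 0 with DR 1 alone. The call was lost for Mthfd2 without AL 3, DR 2 or DR 3 (log2 fold change -0.90 to -0.67). Mthfd2 lost the call with the covariates and with DR 1 alone, and Tyms lost it with DR 1 alone.

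Genes of the circadian clock changed in both directions, with Arntl and its partners lower and the Per and Cry genes higher in DR. The clock is a loop in which ARNTL (BMAL1) and its partners CLOCK or NPAS2 switch on genes through E-box elements, the PER and CRY proteins they induce shut them off, and DBP, TEF and HLF act on D-box elements. Of 19 members, 11 rose and 4 fell, while 9 with the covariates and 6 with DR 1 alone rose, with medians of 0.80 with the covariates and 0.62 with DR 1 alone against 0.76. The promoter sequences of 3 members that rose and hold a match, of Arntl, which fell and holds none, and of Slc25a1, a gene of fatty acid synthesis, are shown as examples. They were picked after the matches were known. Each is the stretch of 250 bases before the transcription start in RefSeq (build GRCm38.p6), read 5′ to 3′ on the strand of the gene, with E-boxes (CACGTG) or D-boxes (TTATGTAA), searched on both strands, in capitals.
Per1, chr11:69098699-69098948, plus strand: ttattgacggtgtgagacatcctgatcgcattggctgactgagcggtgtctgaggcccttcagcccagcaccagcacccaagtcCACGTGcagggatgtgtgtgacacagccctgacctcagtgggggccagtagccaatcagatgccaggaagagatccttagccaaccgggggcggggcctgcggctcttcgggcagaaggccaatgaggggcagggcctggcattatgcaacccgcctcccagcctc
Tef, chr15:81811164-81811413, plus strand: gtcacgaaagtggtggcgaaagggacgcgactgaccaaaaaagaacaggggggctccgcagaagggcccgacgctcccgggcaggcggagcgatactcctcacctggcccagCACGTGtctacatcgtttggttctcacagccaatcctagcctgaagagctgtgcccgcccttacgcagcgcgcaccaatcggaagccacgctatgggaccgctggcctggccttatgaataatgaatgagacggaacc
Per3, chr4:151044666-151044915, minus strand: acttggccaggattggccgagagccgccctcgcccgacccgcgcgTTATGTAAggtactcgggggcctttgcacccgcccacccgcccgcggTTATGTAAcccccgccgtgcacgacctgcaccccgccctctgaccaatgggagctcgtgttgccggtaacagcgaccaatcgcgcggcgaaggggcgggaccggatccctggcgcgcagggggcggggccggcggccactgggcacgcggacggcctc
Arntl, chr7:113207215-113207464, plus strand: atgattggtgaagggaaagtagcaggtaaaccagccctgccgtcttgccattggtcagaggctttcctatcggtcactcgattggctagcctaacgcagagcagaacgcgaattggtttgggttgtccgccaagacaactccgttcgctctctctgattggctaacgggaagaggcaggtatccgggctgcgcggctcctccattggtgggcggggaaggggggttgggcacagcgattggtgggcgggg
Slc25a1, chr16:17928220-17928469, minus strand: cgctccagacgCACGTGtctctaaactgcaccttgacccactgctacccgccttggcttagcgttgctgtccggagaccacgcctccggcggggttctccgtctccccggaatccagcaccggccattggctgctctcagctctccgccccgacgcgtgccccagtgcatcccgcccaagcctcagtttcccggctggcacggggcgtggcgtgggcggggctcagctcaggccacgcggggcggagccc
The Per1, Tef and Slc25a1 windows each hold 1 E-box, the first base of which lies 166, 138 and 239 bases before the start. The Per3 window holds 2 D-boxes, beginning 205 and 158 bases before the start, and the Arntl window holds neither element. Of the 16 clock members with a promoter entry, 5 had an E-box in at least 1 such window and 1 had a D-box, as had 2 and none of 13 members of the fatty acid synthesis list. The E-box members were Per1, Tef and Cry1, which rose, and Ciart and Bhlhe41, which did not pass. Dbp, Hlf, Rora, Cry2 and Nr1d2 rose with neither element in their windows, and the window of a second Per1 start held none. Counted by promoter, since some members have several, 6 of the 21 clock promoters held the E-box and 1 the D-box, while the E-box was in 6.02% and the D-box in 0.819% of all 32851 promoters of the table. These are matches of letters, and no binding was measured here.

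Among the clock repressors and output genes, Per2 was measured at 12.2, 12.7 and 6.49 CPM in AL 1, 2 and 3 and 51.8, 84.3 and 78.7 CPM in DR 1, 2 and 3 (log2 fold change 2.78 ± 0.40 (SE), BH-adjusted p = 8.05e-05). Per3 was at 29.5, 36.6 and 26.3 CPM in AL 1, 2 and 3 and 89.6, 134 and 159 CPM in DR 1, 2 and 3 (log2 fold change 2.05 ± 0.21 (SE), BH-adjusted p = 4.57e-06). Per1 was at 21.8, 25.5 and 12.9 CPM in AL 1, 2 and 3 and 57.6, 103 and 61.7 CPM in DR 1, 2 and 3 (log2 fold change 1.89 ± 0.43 (SE), BH-adjusted p = 0.00325). DR 1 was the lowest DR library in all 3 and still above every AL library. Tef, whose window is shown above, rose from 82.5 ± 8.15 CPM in AL to 243 ± 46.7 CPM in DR (log2 fold change 1.56 ± 0.15 (SE), BH-adjusted p = 3.08e-06), and Dbp and Hlf rose by 1.92 and 1.49. The activators went the other way. Arntl was at 27.7, 33.6 and 28.2 CPM in AL 1, 2 and 3 and 9.91, 9.01 and 8.71 CPM in DR 1, 2 and 3 (log2 fold change -1.70 ± 0.19 (SE), BH-adjusted p = 7.94e-06). Npas2 was at 5.8, 11 and 8.52 CPM in AL 1, 2 and 3 and 1.8, 2.49 and 2.22 CPM in DR 1, 2 and 3 (log2 fold change -1.95 ± 0.32 (SE), BH-adjusted p = 0.000255), and Clock fell by 0.49 (BH-adjusted p = 0.00291). Of the nuclear receptors that tune Arntl, the activator Rora rose by 1.32 ± 0.14, and of the repressors Nr1d2 rose (1.01) while Nr1d1 fell (-1.06), but the call was lost for Nr1d1 without AL 2, AL 3, DR 1 or DR 2 (log2 fold change -1.15 to -0.77). All samples came from 1 time of day, shortly before the next meal of the DR mice, so a change of level and a shift of phase cannot be told apart. AL mice ate freely, so the groups differed in feeding schedule as well as in the amount eaten. Per1, Hlf, Clock and Nr1d2 lost the call with DR 1 alone, and Nr1d1 lost the call with the covariates.

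Targets of glucocorticoids and of fasting were higher in 8 of 16 cases, with 1 lower (8 with the covariates and 3 with DR 1 alone were higher). The median of 0.96 was 1.00 with the covariates and 1.06 with DR 1 alone. Hsd11b1, which regenerates active glucocorticoid inside cells, was at 62.1, 93.1 and 66.6 CPM in AL 1, 2 and 3 and 425, 259 and 319.5 CPM in DR 1, 2 and 3 (log2 fold change 2.18 ± 0.29 (SE), BH-adjusted p = 3.95e-05). Pdk4, a kinase that shuts off pyruvate dehydrogenase in fasting, was at 59, 58 and 68 CPM in AL 1, 2 and 3 and 163, 382 and 284 CPM in DR 1, 2 and 3, with 2.16 on the log2 scale and 1.41 for DR 1 alone. Sgk1 (1.27), Fkbp5 (1.48) and Klf9 (0.98) rose, and the metallothionein Mt2 fell (-1.48). The receptor Nr3c1 did not pass (log2 fold change 0.18 ± 0.10 (SE), BH-adjusted p = 0.228). Pdk4, Fkbp5, Klf9 and Mt2 lost the call with DR 1 alone.

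Most macrophage genes were lower in DR. Of 22 macrophage markers, 20 fell and 1 rose, with a median of -2.17, and 19 with the covariates and 14 with DR 1 alone fell, with medians of -1.71 with the covariates and -1.78 with DR 1 alone. Adgre1, which encodes the marker F4/80, was measured at 224, 279.7 and 429 CPM in AL 1, 2 and 3 and 69.9, 62.7 and 39.5 CPM in DR 1, 2 and 3 (log2 fold change -2.44 ± 0.37 (SE), BH-adjusted p = 0.000124). Lyz2, a lysozyme of myeloid cells, was at 961, 1160 and 1770 CPM in AL 1, 2 and 3 and 334, 278 and 206 CPM in DR 1, 2 and 3 (log2 fold change -2.25 ± 0.33 (SE), BH-adjusted p = 9.93e-05). Every DR library was below every AL library in both. Clec12a (-3.06 ± 0.39), the scavenger receptor Msr1 (-2.30 ± 0.26) and the mannose receptor Mrc1 (-1.53 ± 0.20) fell too. Cd163, a haemoglobin scavenger receptor of resident macrophages, rose instead, from 68.1 ± 13.2 CPM in AL to 144 ± 21 CPM in DR (log2 fold change 1.08 ± 0.27 (SE), BH-adjusted p = 0.00614). The list of genes of lipid-associated macrophages, which surround dying or overfilled adipocytes, had 9 of 14 members lower and 2 higher (9 with the covariates and 6 with DR 1 alone were lower). Mmp12, a macrophage elastase (chromosome 9, 7344381 to 7369499, plus strand), was at 178, 180.4 and 442 CPM in AL 1, 2 and 3 and 1.39, 1.93 and 1.67 CPM in DR 1, 2 and 3, a 159-fold lower level (log2 fold change -7.31 ± 0.92 (SE), BH-adjusted p = 2.42e-05). Trem2, the lipid receptor of these cells, was at 61.4, 68.6 and 148 CPM in AL 1, 2 and 3 and 4.06, 5.8 and 6.12 CPM in DR 1, 2 and 3 (log2 fold change -4.12 ± 0.49 (SE), BH-adjusted p = 1.5e-05). Atp6v0d2, a proton pump subunit, was at 29.8, 36.2 and 96.3 CPM in AL 1, 2 and 3 and 1.51, 1.48 and 0.309 CPM in DR 1, 2 and 3. AL 3 was the highest library in each of the 3 genes, and every DR library was below every AL library. The 2 members that rose, Lpl (0.86) and Fabp5 (1.20), are also expressed by adipocytes, and the call was lost for Fabp5 without AL 2 or DR 1 (log2 fold change 0.86 to 0.95). With DR 1 alone, the values of Trem2, Mmp12, Itgax and Adgre1 were -4.51, -7.58, -3.37 and -2.15. Cd163 lost the call with the covariates and with DR 1 alone, and Lpl lost it with DR 1 alone.

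Of 27 tested chemokine and cytokine genes, 14 fell and 1 rose, and 7 with the covariates and 3 with DR 1 alone fell. The median of -1.64 was -1.24 with the covariates and -0.85 with DR 1 alone. Ccl2, the main monocyte attractant, was at 16.6, 11.9 and 20.5 CPM in AL 1, 2 and 3 and 1.85, 1.12 and 1.17 CPM in DR 1, 2 and 3 (log2 fold change -3.56 ± 0.51 (SE), BH-adjusted p = 8.04e-05), and Ccl7 at 13.2, 15.2 and 18.1 CPM in AL 1, 2 and 3 and 1.68, 0.713 and 0.989 CPM in DR 1, 2 and 3. Il1rn, which encodes the interleukin 1 receptor antagonist, fell from 6.77 ± 2.6 CPM in AL to 0.318 ± 0.14 CPM in DR, Tnf fell by 1.81, and Cxcl16, a scavenger chemokine, by 1.68. Il33, an alarmin of stromal cells, was the member that rose (1.25 ± 0.36), but the call was lost for Il33 without AL 1 or DR 3 (log2 fold change 0.79 to 1.17). Complement had 7 of 14 members lower (4 with the covariates and 3 with DR 1 alone), including the receptor C3ar1 (-2.57) and Cfb (-1.44), while Cfd, the adipocyte factor D or adipsin, rose from 1996 ± 453 CPM in AL to 5593 ± 1045 CPM in DR. Among interferon-stimulated genes Gbp2, a guanylate-binding protein, went from 194 ± 16.1 CPM in AL to 97.4 ± 16.9 CPM in DR. Of 25 members of this list none was higher, and 6 were lower, against 12.5% lower over all genes tested. This count was 2 with the covariates and 0 with DR 1 alone and 2 without AL 2, DR 2 or DR 3. In the lysosome and autophagy list 12 of 32 fell and 1 rose (9 with the covariates and 7 with DR 1 alone fell), with Ctsk, a collagen-degrading cathepsin (-1.81 ± 0.25), and the acid lipase Lipa (-1.71 ± 0.26) among those that fell. Il33 lost the call with the covariates and with DR 1 alone, and Ccl7, Tnf and Gbp2 lost it with DR 1 alone.

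None of 13 tested B and plasma cell genes passed, and 2 of 25 T and NK cell genes were called lower, Gzma (-3.19) and Ncr1 (-1.54), a smaller share than the 12.5% over all genes tested. The median of the T and NK list, -0.43, became 0.14 with the covariates and 0.66 with DR 1 alone. No call was made for Ncr1 without AL 2, AL 3, DR 2 or DR 3 (log2 fold change -1.45 to -1.32), while without DR 1, the library highest in these genes, 10 members were called lower. MHC class II genes, which B cells, dendritic cells and macrophages share, had 6 of 11 members lower (1 with the covariates and 1 with DR 1 alone, or 1 when only the 2 groups were fitted), with H2-Ab1 at 225, 291 and 306 CPM in AL 1, 2 and 3 and 205, 85.4 and 69.3 CPM in DR 1, 2 and 3 (log2 fold change -1.19 ± 0.29 (SE), BH-adjusted p = 0.00593). DR 2 and DR 3 were low and DR 1, the library highest in lymphocyte genes, lay near the AL libraries. With DR 1 alone the log2 fold changes of H2-Ab1, H2-DMa and H2-DMb1 were -0.42, -0.40 and -1.09, against -1.19, -1.11 and -1.66 with all 3 DR libraries. What part the lymphocyte RNA of DR 1 has in it was not tested. Ncr1, H2-Ab1 and H2-DMa lost the call with the covariates and with DR 1 alone.

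Of 30 extracellular matrix genes, 17 fell, 13 did not pass and none rose, and 8 with the covariates and 7 with DR 1 alone fell. The median of -0.90 was -0.85 with the covariates and -1.14 with DR 1 alone. Col5a2, a fibrillar collagen, was measured at 609, 591 and 816 CPM in AL 1, 2 and 3 and 225, 293 and 214 CPM in DR 1, 2 and 3 (log2 fold change -1.46 ± 0.26 (SE), BH-adjusted p = 0.000469). Col3a1 was at 2897, 2701 and 3839 CPM in AL 1, 2 and 3 and 1150, 1384 and 1286 CPM in DR 1, 2 and 3 (log2 fold change -1.30 ± 0.25 (SE), BH-adjusted p = 0.00096). Col6a3, the adipose collagen from which endotrophin is cut, fell from 746 ± 153 CPM in AL to 327 ± 51.1 CPM in DR (log2 fold change -1.19 ± 0.25 (SE), BH-adjusted p = 0.00167). No DR library reached the lowest AL library in these 3 genes. Col1a1 had a log2 fold change of -1.17 (BH-adjusted p = 0.0464), but its call was lost whichever of the 6 libraries was left out (-1.32 to -0.96). Fn1, which encodes fibronectin, did not pass (log2 fold change -0.39 ± 0.36 (SE), BH-adjusted p = 0.452). Matrix proteases and their inhibitors fell in 11 of 20 cases and rose in 1 (7 with the covariates and 6 with DR 1 alone fell, with medians of -0.81 with the covariates and -0.88 with DR 1 alone against -0.72). Adam8, a protease of myeloid cells, was at 56.9, 66.6 and 128 CPM in AL 1, 2 and 3 and 6.9, 4.94 and 5.99 CPM in DR 1, 2 and 3 (log2 fold change -3.82 ± 0.58 (SE), BH-adjusted p = 0.000124), Timp4 fell by 1.51, Adamts5, an aggrecanase, by 2.01, and Timp3 rose by 0.67. Of other cell type lists, 1 of 20 fibroblast and progenitor genes fell, Icam1 (-0.69), and 3 of 18 endothelial genes fell, against 12.5% over all genes tested, namely Aplnr (-1.30), Egfl7 (-0.55) and Tek (-0.44). The endothelial calls were lost for Aplnr without AL 3, DR 2 or DR 3 (log2 fold change -1.27 to -1.18), for Egfl7 without AL 2, DR 2 or DR 3 (log2 fold change -0.56 to -0.49) and for Tek without DR 3 (log2 fold change -0.35). Pdgfra, a marker of fibroblasts and progenitors, was at 184, 188 and 211 CPM in AL 1, 2 and 3 and 138, 169 and 183 CPM in DR 1, 2 and 3 (log2 fold change -0.25 ± 0.23 (SE), BH-adjusted p = 0.451). Col1a1, Timp3, Aplnr, Egfl7 and Tek lost the call with the covariates and with DR 1 alone, and Col6a3 and Icam1 lost it with DR 1 alone.

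Proliferation genes were lower in 23 of 28 cases and higher in none, with a median of -1.26. This count depended on the libraries, with 7 with the covariates and 1 with DR 1 alone, and 12 to 15 without AL 2, AL 3, DR 2 or DR 3. The median was -0.93 with the covariates and -0.80 with DR 1 alone. Cdk1, the kinase of mitotic entry, was at 6.43, 7.1 and 8.98 CPM in AL 1, 2 and 3 and 2.32, 1.98 and 1.42 CPM in DR 1, 2 and 3 (log2 fold change -1.97 ± 0.29 (SE), BH-adjusted p = 0.000104), and Pcna, the sliding clamp of DNA replication, fell from 67.2 ± 9.95 CPM in AL to 39.7 ± 8.2 CPM in DR (log2 fold change -0.76 ± 0.15 (SE), BH-adjusted p = 0.000891). DR 1 was closer to AL than the other DR libraries in part of this list, with log2 fold changes of -0.91 against -1.71 for the topoisomerase Top2a and -0.73 against -1.63 for Rrm2, which makes deoxyribonucleotides. No call was made for Rrm2 without AL 2, AL 3, DR 2 or DR 3 (log2 fold change -1.59 to -1.34). Among 17 tested genes of senescence and arrest, 4 fell and 1 rose, a share close to the 26.0% called over all genes tested, and the lower count was 1 with the covariates and 0 with DR 1 alone and 2 without AL 3 or DR 3, or 2 when only the 2 groups were fitted. Cdkn2a, which encodes p16 and p19ARF, was at 1.15, 1.76 and 0.987 CPM in AL 1, 2 and 3 and 1.16, 0.458 and 0.0618 CPM in DR 1, 2 and 3, with overlapping groups (log2 fold change -1.20 ± 0.63 (SE), BH-adjusted p = 0.172), and Cdkn1a, which encodes p21, had a log2 fold change of -0.28 ± 0.21. Plaur (-0.99), the urokinase receptor, Glb1 (-0.33), a lysosomal galactosidase, Mmp3 (-1.15) and Trp53 (-0.49) fell, and Rb1 rose (0.41). The call was lost for Trp53 without DR 2 or DR 3 (log2 fold change -0.41), for Glb1 without AL 3 (log2 fold change -0.24), for Mmp3 without AL 1, AL 3, DR 1, DR 2 or DR 3 (log2 fold change -1.18 to -0.96) and for Rb1 without AL 1, AL 2, DR 2 or DR 3 (log2 fold change 0.31 to 0.46). Top2a, Rrm2, Glb1, Mmp3, Trp53 and Rb1 lost the call with the covariates and with DR 1 alone, and Pcna and Plaur lost it with DR 1 alone.

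Stress response genes split. In the unfolded protein and integrated stress response, 9 of 20 members fell and 4 rose. The lower count was 3 with the covariates and 1 with DR 1 alone and 4 to 5 without AL 1, AL 3 or DR 3, or 3 when only the 2 groups were fitted. Among the members that fell, Calr, a chaperone of the endoplasmic reticulum, fell by 0.57, and Atf3, a transcription factor induced by stress, fell from 43.5 ± 24.9 CPM in AL to 7.63 ± 1.42 CPM in DR. Chac1, which degrades glutathione, was at 3.79, 1.76 and 2.28 CPM in AL 1, 2 and 3 and 14.4, 21.8 and 21.7 CPM in DR 1, 2 and 3 (log2 fold change 2.88 ± 0.35 (SE), BH-adjusted p = 1.82e-05), and Asns, the asparagine synthetase, rose by 1.11 ± 0.16. In antioxidant defence, 7 of 23 rose and 5 fell. The higher count was 4 with the covariates and 4 with DR 1 alone, and the lower count 1 with the covariates and 1 with DR 1 alone and 2 to 3 without AL 3, DR 2 or DR 3, or 3 when only the 2 groups were fitted. Those that rose included the mitochondrial peroxiredoxin Prdx3 (0.89), Sod1 (0.80) and Gpx4 (0.91), which reduces lipid peroxides. Those that fell included Hmox1 (-1.17), a haem oxygenase of macrophages, and Txnrd1 (-0.56). Calr, Sod1 and Hmox1 lost the call with the covariates and with DR 1 alone.

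The response to lifelong restriction was set beside that of young mice of the same strain, in which 3 libraries labelled ALDR, from mice killed at 5 months after 2 months of restriction, were compared with 3 AL libraries of 5 months. These groups share no library with the old ones, and age and duration differ together. The young response included 4619 called genes (29.2%). Of the 4114 genes changed by lifelong restriction, 3914 had the same sign at 5 months, and 1390 were not called there, 1197 of them with the same sign. In edgeR's test of the difference between the 2 responses, 0 of 15828 genes passed (0.00%), 1355 had an unadjusted p under 0.05, and the smallest BH-adjusted p was 0.151. DESeq2 called 46, with 1448 at an unadjusted p under 0.05, and edgeR without DR 1 called 13. Cholesterol synthesis and uptake had 9 members higher and 2 lower after lifelong restriction and 1 higher and 9 lower after 2 months, and the medians were 0.17 and -0.36. The lifelong counts became 6 and 5 when only the 2 groups were fitted. Insig1, which holds back sterol synthesis, had log2 fold changes of 1.28 and -0.17 (difference 1.45 ± 0.58 (SE), BH-adjusted p = 0.509), and the call after lifelong restriction was lost for Insig1 without AL 1, AL 2, DR 1 or DR 3 (log2 fold change 1.00 to 1.27). The stress response list had 4 higher and 9 lower against 9 higher and 3 lower. Macrophage medians were -2.17 and -0.85, and C1qa, a complement subunit made by macrophages, had -1.92 and -0.30 (difference -1.62 ± 0.45 (SE), BH-adjusted p = 0.359). Fatty acid synthesis medians were 2.98 and 1.65, with Acly at 3.32 and 1.18 (difference 2.14 ± 0.67 (SE), BH-adjusted p = 0.396). A difference between the responses that misses the threshold does not show that they were alike, and the SE of the difference was 0.45 to 0.67 log2 units for these 3 genes. Insig1 lost the call with DR 1 alone.

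**Figure D5:**
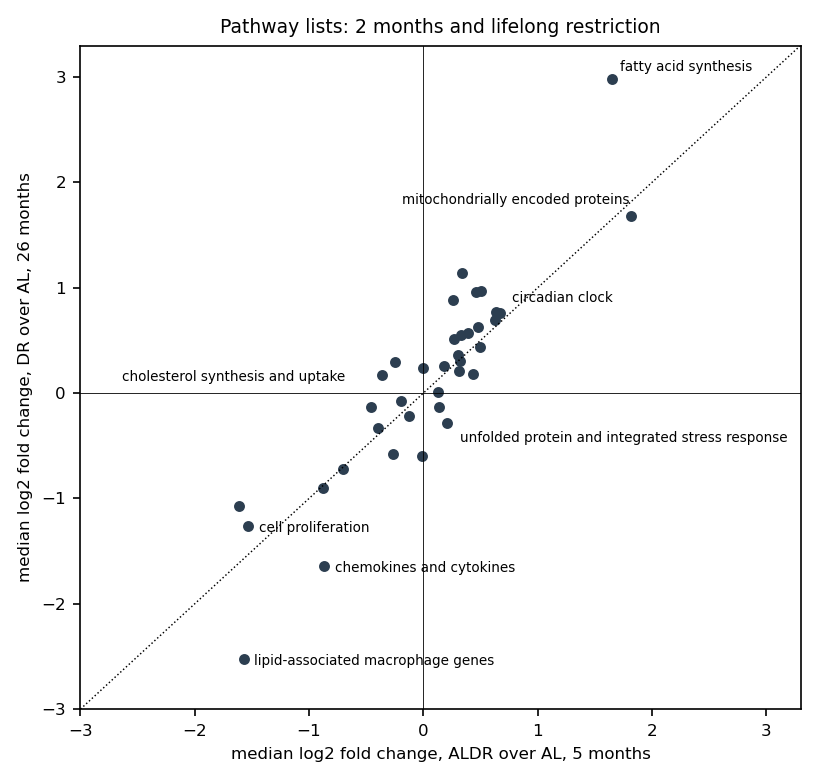
Median log2 fold change of each of 37 pathway lists after 2 months of restriction at 5 months (horizontal axis) and after lifelong restriction at 26 months (vertical axis), 1 point per list, with a dotted line where both are equal. Fatty acid synthesis lies at 1.65 and 2.98, lipid-associated macrophage genes at -1.57 and -2.52, and cholesterol synthesis and uptake has a negative young and a positive lifelong median.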

How the data were processed

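The authors deposited raw read counts per gene for WAT, 1 column per library. Per the submitters' processing notes, reads were trimmed with Trim Galore 0.3.7 and aligned with TopHat2 2.0.14 to GRCm38, and DESeq2 was among the tools. The counting program and annotation are not given in the sources used here, so how overlapping genes and close copies divide their reads is unknown. Symbols came from GENCODE M21 (25012 of 25913 genes). Genes were filtered with filterByExpr (minimum count 10), scaled by TMM and tested with edgeR 4.0.16 (R 4.3.3, quasi-likelihood), with all 22 WAT libraries in 1 fit and Benjamini-Hochberg adjustment over 15828 genes. CPM used TMM-scaled library sizes. SEs are the absolute log2 fold change over the square root of F. Same-group libraries differed beyond counting noise (chi-square per degree of freedom 33.3 to 82.3), so each was 1 replicate. Alternatives were DESeq2 1.42.0, its size factors, no filter, only the 2 groups, a replicate block, muscle and liver covariates, leaving out each library, and leaving out the libraries highest in Ckm. On simulated counts for DR against AL, 100 of 15828 genes were changed at each fold. The test recovered 55.6% of those changed 2-fold and 86% of those changed 4-fold. In the data 26.0% of the genes were called, a far larger share, so these rates need not hold for this comparison.

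The comparison, members and gene lists were chosen with earlier results of these data known. Genes named are the 10 higher and 10 lower with the smallest adjusted p (at least 2-fold, no overlap), up to 4 with the smallest p of each list, and 16 chosen by name. Any other gene was chosen after its values were seen, and not every gene the rule names is described. The lists are described by counts and medians, with no set test. Results for some genes are not reported here.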

Additional observations from a re-analysis of the deposited data

How the results depend on the processing

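Of 204 genes named, 190 were called, and 24 of these lost the call when 1 library was left out. Without 1 library, 2935 to 4185 genes changed (1592 to 2145 higher, 1324 to 2040 lower), and the responses to lifelong and short restriction differed in 0 to 13. Medians then ranged from 0.68 to 1.08 for triacylglycerol synthesis, 0.29 to 0.611 for polyunsaturated fatty acids and phospholipids, 0.0724 to 1.34 for thermogenic genes, -0.39 to 0.0453 for adipokines, 0.18 to 0.358 for nutrient sensing kinases, 3.04 to 7.73 for skeletal muscle, -6.9 to 3.5 for hepatocytes and -0.672 to 0.414 for ovary and uterus. Ucp1 ranged from -2.88 to 1.34. DESeq2 called 4650 genes (46 for the difference between responses), DESeq2 size factors gave 4092, no filter 3731 and a fit of only the 2 groups 2777 (1309 higher, adipokine median -0.373). With the covariates 1944 genes were called, 1103 higher and 841 lower, with medians of 0.19 for nutrient sensing kinases, 0.00871 for skeletal muscle and 1.67 for hepatocytes, and Ucp1 at 0.975. DR 1 alone gave 1272 genes, 830 higher and 442 lower, with medians of -0.429 for adipokines, 0.0937 for nutrient sensing kinases, -0.139 for the unfolded protein response, -0.85 for chemokines, -0.795 for proliferation and 0.146 for skeletal muscle. Also without AL 1, an alternative chosen after seeing the data, 846 genes were called, 523 higher and 323 lower, with medians of -0.133 for insulin signalling, 0.0464 for nutrient sensing kinases, -0.114 for the unfolded protein response, -1.04 for chemokines and 0.155 for cytosolic ribosomal proteins, and Nr3c1 at -0.00964. Both fits hold a lone DR library, whose spread is taken to equal that of the other groups, and fewer samples; the cause of the shifts with the covariates was not tested. Same-numbered AL and DR samples correlated at -0.253, -0.28 and -0.242 in their deviations from the group mean, and the other pairs at -0.209 to 0.478. No pairing by number was seen, but 3 libraries per group cannot exclude one. An edgeR fit with the replicate number as a block called 4262 genes, 3868 of them among the 4114. Among the genes named it ended the call of Rb1 (adjusted p = 0.0565) and of no other. Levels near 3 counts, or 0.135 to 0.186 CPM of the unscaled totals, could not be told from 0.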

Other observations

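Several genes outside the gene lists with large changes, among them transporters and enzymes, were picked after their values were seen. Slc2a5, the fructose transporter GLUT5, was measured at 0.767, 0.341 and 0.987 CPM in AL 1, 2 and 3 and 45.7, 31.8 and 36 CPM in DR 1, 2 and 3 (log2 fold change 5.73 ± 0.95 (SE), BH-adjusted p = 0.000289). Slc27a1, a fatty acid transport protein, was at 318, 359 and 352 CPM in AL 1, 2 and 3 and 2020, 2147 and 1992 CPM in DR 1, 2 and 3 (log2 fold change 2.58 ± 0.29 (SE), BH-adjusted p = 7.94e-06), and Fam13a, a gene linked to fat distribution in people, at 33, 41.7 and 25.4 CPM in AL 1, 2 and 3 and 383, 839 and 398 CPM in DR 1, 2 and 3 (log2 fold change 4.02 ± 0.56 (SE), BH-adjusted p = 6.48e-05). Glul, the glutamine synthetase, rose from 1092 ± 136 CPM in AL to 3523 ± 95.4 CPM in DR, and Car5b, a mitochondrial carbonic anhydrase, from 282 ± 15.3 CPM in AL to 1135 ± 77.1 CPM in DR. Pdk1, a pyruvate dehydrogenase kinase, rose by 1.97, and the medium-chain acyl-CoA synthetases Acsm3 and Acsm5 by 3.46 and 2.95. The potassium channel gene Kcnj15 rose by 3.95, against 1.28 after 2 months of restriction in young mice (difference 2.67 ± 0.53 (SE), BH-adjusted p = 0.156). Every DR library was above every AL library in these 9 genes.

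Among genes of immune cells outside the lists, 3 that fell were picked after their values were seen. Clec7a, which encodes the fungal receptor dectin-1, was at 30.7, 54.5 and 79.3 CPM in AL 1, 2 and 3 and 10.6, 3.26 and 3.89 CPM in DR 1, 2 and 3 (log2 fold change -3.22 ± 0.48 (SE), BH-adjusted p = 0.000104), and the myeloid hexokinase Hk3 at 25.4, 37.2 and 61.2 CPM in AL 1, 2 and 3 and 8.12, 6.31 and 5.75 CPM in DR 1, 2 and 3 (log2 fold change -2.62 ± 0.34 (SE), BH-adjusted p = 3.73e-05). Gdf3, a TGF-beta family member made by adipose macrophages, fell from 12.3 ± 5.88 CPM in AL to 0.536 ± 0.296 CPM in DR. In Clec7a DR 1 was the highest DR library. Tph2, a tryptophan hydroxylase best known in serotonin neurons, was at 58.3, 14.9 and 41.5 CPM in AL 1, 2 and 3 and 0.464, 0.56 and 0.494 CPM in DR 1, 2 and 3 (log2 fold change -6.22 ± 1.43 (SE), BH-adjusted p = 0.00358), with AL 2 well below the other AL libraries. Among the marker lists of other tissues, Cyp2e1 and Trf, which liver and fat both express, rose (3.10 and 1.39), while the other 16 tested liver genes, among them Alb, did not pass. Of the Schwann cell and nerve list, S100b (-2.59) and Ngfr (-2.28) fell. Tph2, S100b and Ngfr lost the call with DR 1 alone.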
